A study of Mus musculus with 10 samples.

Results

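Aminoacyl-tRNA synthetases are the enzymes that join each amino acid to its transfer RNA. The set described here holds 36 synthetase genes, taken by symbol from both expression tables, out of 46977 genes in the 12-month table and 46786 in the 3-month table. Of these, 20 encode the enzymes of the cytosol and 16 encode those of the mitochondrion, and all 36 were found and tested at both ages. RNA-seq was run on whole dissected mouse hearts in 4 groups: 2 Prdm16 knockout and 2 control hearts at 12 months of age, and 3 Prdm16 knockout and 3 control hearts at 3 months. Prdm16 encodes a zinc-finger transcriptional regulator, and the series title names heart enlargement, mitochondrial dysfunction and heart failure that depend on age. The allele, any Cre driver, the strain and the sex of the mice were not given in the sources used. The labels do not state that each library is a separate animal, so p-values reflect only the spread between these samples, which may be technical.

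Each synthetase reads its own set of tRNAs, and the charged tRNAs feed the ribosome. The cytosol and the mitochondrion mostly use separate enzymes from separate nuclear genes, the mitochondrial ones usually carrying the suffix 2. Gars and Kars are exceptions, since each gives both forms from a single gene. Mitochondria have no glutaminyl enzyme of their own and make glutaminyl-tRNA by amidation. Several cytosolic enzymes are held together in the multi-synthetase complex (Eprs, Iars, Lars, Mars1, Qars, Rars, Kars and Dars). Many cytosolic genes, but few mitochondrial ones, are known targets of ATF4, the transcription factor of the amino acid response, which binds DNA as a partner of C/EBP proteins. Heart muscle spends much of its protein synthesis on the contractile apparatus and depends on mitochondrial translation for its respiratory chain.

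Promoter sequence is shown first because the cytosolic and mitochondrial genes are set apart below by their link to ATF4. RefSeq promoter windows of 250 bases before the start (GRCm38.p6) were searched for 26 members, for the C/EBP-ATF element core TGATGNAA on both strands. The core was found in 2 of 12 cytosolic genes (16.7%), Gars and Tars, and in 0 of 14 mitochondrial genes, against 3.45% of all 32851 windows of the table. A gene was counted if any of its windows held the core, whereas the share over all windows counts each window singly. These shares are therefore not of like kind. The full ATF/CRE palindrome TGACGTCA was found in 0 of 12 cytosolic and 0 of 14 mitochondrial windows, against 1.55% of all windows, so matches of the 2 motifs overlap in none of these windows. A match is a description of letters, not of binding. Both matches are printed 5′ to 3′ on the gene's strand, with the element in capitals, here as the reverse complement of the core.
Gars: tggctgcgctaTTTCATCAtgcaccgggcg
Tars: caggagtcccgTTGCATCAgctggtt
The Gars stretch lies at chr6:55037960-55037989 on the plus strand, and its element begins 30 bases before the RefSeq start. The Tars stretch lies at chr15:11399659-11399684 on the minus strand, and its element begins 15 bases before the start.

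The deposited unit is FPKM, fragment numbers scaled for gene length and for library size. Summed FPKM was 1070016 and 1171104 in the 12-month knockout libraries against 890181 and 897425 in the 12-month controls, and 626492 to 718787 in the 3-month knockout libraries against 516272 to 673686 in the 3-month controls. In the 12-month table low values lay near multiples of a single read, which gave 26.5 and 21.75 M reads for the knockout hearts against 29.8 and 31.25 M for the controls, and the depth at 3 months is unknown. Prdm16 itself was at 4.02 and 3.58 FPKM in 12-month knockout hearts against 6.31 and 5.05 FPKM in controls (limma adjusted p = 0.340), and the 3-month groups overlapped, at 0.760 to 2.03 FPKM in knockout against 1.44 to 2.23 FPKM in control hearts. At 12 months Ddx3y, a Y-linked gene, was at 24.5 and 20.7 FPKM in knockout hearts against 0.0352 and 0.0114 FPKM in controls, and Xist, expressed from the inactive X, was at 0.0911 and 0.0240 FPKM in knockout against 33.1 and 31.0 FPKM in control hearts, so sex and genotype cannot be told apart at that age. At 3 months every library had Ddx3y at 16.5 FPKM or more and Xist at 0.490 FPKM or less.

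Markers of other cells also moved with the groups, and their part in the results below was not tested. Summed over its 5 markers, the red blood cell level was 1955 to 2157 FPKM in 12-month knockout hearts against 10650 to 10780 FPKM in controls, and 2081 to 3111 FPKM in 3-month knockout hearts against 818.2 to 1113 FPKM in controls, with 5 of 5 markers called at each age. Of the 5 atrial markers 1 was higher and 4 lower in 12-month knockout hearts, with 0 called. Nppa, a natriuretic peptide also made by stressed ventricle, was at 15100 and 11260 FPKM in 12-month knockout hearts against 3313 and 3234 FPKM in controls, and the other 4 summed to 659.8 and 2192 FPKM in knockout against 2928 and 2852 FPKM in control hearts. At 3 months 4 of 5 were higher and 1 was called, with a sum of 12220 to 28370 FPKM in knockout against 691.7 to 6110 FPKM in control hearts. Of this sum, Nppa gave 11820, 19850 and 16220 FPKM in knockout against 748.8, 561.0 and 3825 FPKM in control hearts. The other 4 atrial markers overlapped, at sums of 398.5, 8517 and 2768 FPKM in knockout against 262.2, 130.7 and 2285 FPKM in control hearts. The 3 airway markers were all listed at 0 in the 12-month libraries and summed to 0.151 to 0.319 FPKM in 3-month knockout hearts against 12.8 to 32.3 FPKM in controls. The 4 adipocyte markers summed to 3.07 to 3.45 FPKM in 12-month knockout hearts against 25.8 to 30.9 FPKM in controls. The 3 smooth muscle markers, 0 of 3 higher, summed to 132.4 to 140.9 FPKM in 12-month knockout against 237.7 to 239.6 FPKM in control hearts. The 4 endothelial markers, 1 of 4 higher, summed to 849 to 1511 FPKM in 12-month knockout against 745.9 to 749.3 FPKM in control hearts, and the 4 macrophage markers, 2 of 4 higher, to 91.9 to 99.7 FPKM in knockout against 82.2 to 83.7 FPKM in control hearts. None of these 3 lists had a marker called. The 5 lymphocyte markers summed to 7.53 to 10.9 FPKM in 3-month knockout against 1.75 to 2.85 FPKM in control hearts, with 2 called of 3 tested. Fibroblast markers overlapped at both ages. Cardiomyocyte markers were high throughout and overlapped, at 12490 to 16190 FPKM in 12-month knockout against 14610 to 14810 FPKM in control hearts and at 8304 to 8880 FPKM in 3-month knockout against 7163 to 9709 FPKM in control hearts. In bulk tissue, fewer cells of a type and less RNA per cell cannot be told apart.

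All synthetases were expressed in the heart, at levels that differed widely between genes. The median cytosolic member was at 21.7 and 22.4 FPKM in the 12-month knockout libraries against 19.7 and 20.7 FPKM in controls, and at 13.3 to 13.8 FPKM in the 3-month knockout libraries against 11.8 to 16.1 FPKM in controls. The median mitochondrial member was lower in every library, at 15.5 and 13.9 FPKM in 12-month knockout against 15.2 and 14.4 FPKM in control hearts, and at 5.08 to 5.66 FPKM in 3-month knockout against 4.99 to 7.14 FPKM in control hearts. Among cytosolic genes at 12 months, Qars, the glutaminyl enzyme, had the highest mean and Cars, the cysteinyl enzyme, the lowest in both genotypes. At 3 months Cars was again the lowest in both, while the highest was Kars, the lysyl enzyme, in knockout hearts and Sars, the seryl enzyme, in controls. Kars averaged 32.5 ± 1.53 FPKM in 3-month knockout and 29.8 ± 3.16 FPKM in control hearts, and Sars averaged 24.2 ± 0.844 FPKM in knockout and 30.8 ± 6.38 FPKM in control hearts (SD, n = 3 each), so the order of this pair in the controls lies within their spread.

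The mitochondrial leucyl enzyme Lars2 stood apart from the other members by level, and by table. It was at 315 and 257 FPKM in 12-month knockout hearts against 286 and 280.0 FPKM in controls, above every other member. At 3 months it was at 3.74, 2.78 and 4.85 FPKM in knockout hearts against 4.74, 5.77 and 4.37 FPKM in controls, in the lower part of the mitochondrial range. The tables were made separately from differently prepared libraries, so this gap between ages was not tested. Within an age the genotypes overlapped for Lars2 (log2 difference 0.01 at 12 months, limma adjusted p = 0.982, and -0.33 at 3 months, limma adjusted p = 0.347). The lowest mitochondrial members were Mars2, the methionyl enzyme, at 12 months (1.96 and 1.54 FPKM in knockout against 2.14 and 2.34 FPKM in control hearts) and Wars2, the tryptophanyl enzyme, at 3 months (1.02 to 1.18 FPKM in knockout against 0.822 to 1.22 FPKM in control hearts).

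At 12 months the median knockout difference of cytosolic synthetases lay above that of all genes, and the median of mitochondrial synthetases below it, in FPKM and after rescaling alike, while no single gene passed the test. Differences are given as knockout minus control on the log2(FPKM + 1) scale, which understates the change of low genes. The median difference was 0.22 over the 20 cytosolic genes and -0.13 over the 16 mitochondrial genes, beside 0.01 over all 13179 genes tested, of which 51.5% lay above 0. Of the cytosolic genes 16 lay above 0 and 4 below, with a split of 8 and 12 once values were rescaled to TPM (FPKM scaled to the same total in each library), and of the mitochondrial genes 6 lay above 0 and 10 below, with 0 and 16 in TPM. That rescaling moved the median of all genes to -0.27, with 2444 of 13203 above 0. Relative to that median the cytosolic median was 0.18 higher and the mitochondrial median 0.16 lower, close to the 0.21 higher and 0.14 lower found in FPKM. The mitochondrial gap shrank to 0.04 lower without the first knockout library, and likewise without the second, where 8 genes lay above 0 and 8 below. In the same 2 fits the cytosolic median was 0.33 and 0.12 higher than that of all genes. Of the 36 members 0 were called by limma at an adjusted p under 0.05, beside 0.395% of all genes. At an unadjusted p under 0.05 limma gave 5 members, all cytosolic and all higher (Aars, Lars, Eprs, Nars and Kars), and limma without a trend also gave 5 and called 0; among all genes the share was 13.6%, with 7.58% higher in knockout hearts. In TPM the same level was reached by 0 members that were higher and 8 that were lower (2 cytosolic and 6 mitochondrial), beside 353 genes higher and 2822 lower of 13203 tested.

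The 4 cytosolic genes of lowest p at 12 months charge alanine, leucine, glutamate with proline, and asparagine. Aars was at 18.3 and 20.5 FPKM in knockout hearts against 14.8 and 14.1 FPKM in controls, a log2 difference of 0.40 ± 0.12 (SE, limma adjusted p = 0.305). Lars, whose product also senses leucine for growth signalling, was at 17.4 and 19.5 FPKM in knockout hearts against 13.5 and 14.2 FPKM in controls, a difference of 0.39 ± 0.12 (limma adjusted p = 0.314). In both genes each knockout library lay above each control. Eprs, a fusion of the glutamyl and prolyl enzymes, was at 28.6 and 30.8 FPKM in knockout hearts against 23.4 and 22.8 FPKM in controls (0.35 ± 0.11, limma adjusted p = 0.316). Nars was at 37.1 and 41.5 FPKM in knockout hearts against 30.2 and 30.9 FPKM in controls (0.35 ± 0.12, limma adjusted p = 0.341). These groups did not overlap either, as for 50.3% of all genes tested, with 27.3% wholly higher in knockout hearts. The exact permutation test of 2 against 2 libraries cannot go below 0.333. In TPM no gene of the ATF4 list given below, which holds all 4, had a difference above 0.09.

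Members of the multi-synthetase complex had a median difference of 0.34 at 12 months, with 7 of 8 above 0. In TPM the median was 0.03 with 5 of 8 above 0, beside -0.27 and 2444 of 13203 for all genes. The median was 0.45 without the first knockout library and 0.21 without the second. Qars was at 79.3 and 108 FPKM in knockout hearts against 68.4 and 67.7 FPKM in controls, a difference of 0.44 ± 0.18 that was the largest of the 36 (limma adjusted p = 0.405). Kars was at 48.3 and 56.8 FPKM in knockout hearts against 39.5 and 40.2 FPKM in controls (0.39 ± 0.13, limma adjusted p = 0.343). For Qars the gap between the knockout libraries was wider than the gap from the lower of them to the controls. Mars1, the methionyl enzyme, was at 22.3 and 27.1 FPKM in knockout hearts against 19.9 and 18.6 FPKM in controls (0.34 ± 0.14), and it overlaps the stress gene Ddit3 on the opposite strand. Dars, the aspartyl enzyme, had a difference of 0.31 ± 0.13 and Rars, the arginyl enzyme, one of 0.02 ± 0.12. Iars, the isoleucyl enzyme, was the only complex member below 0 in FPKM (3 of 8 were in TPM), at 23.3 and 23.0 FPKM in knockout hearts against 21.5 and 30.5 FPKM in controls, where the controls spanned the knockout values.

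**Figure D1:**
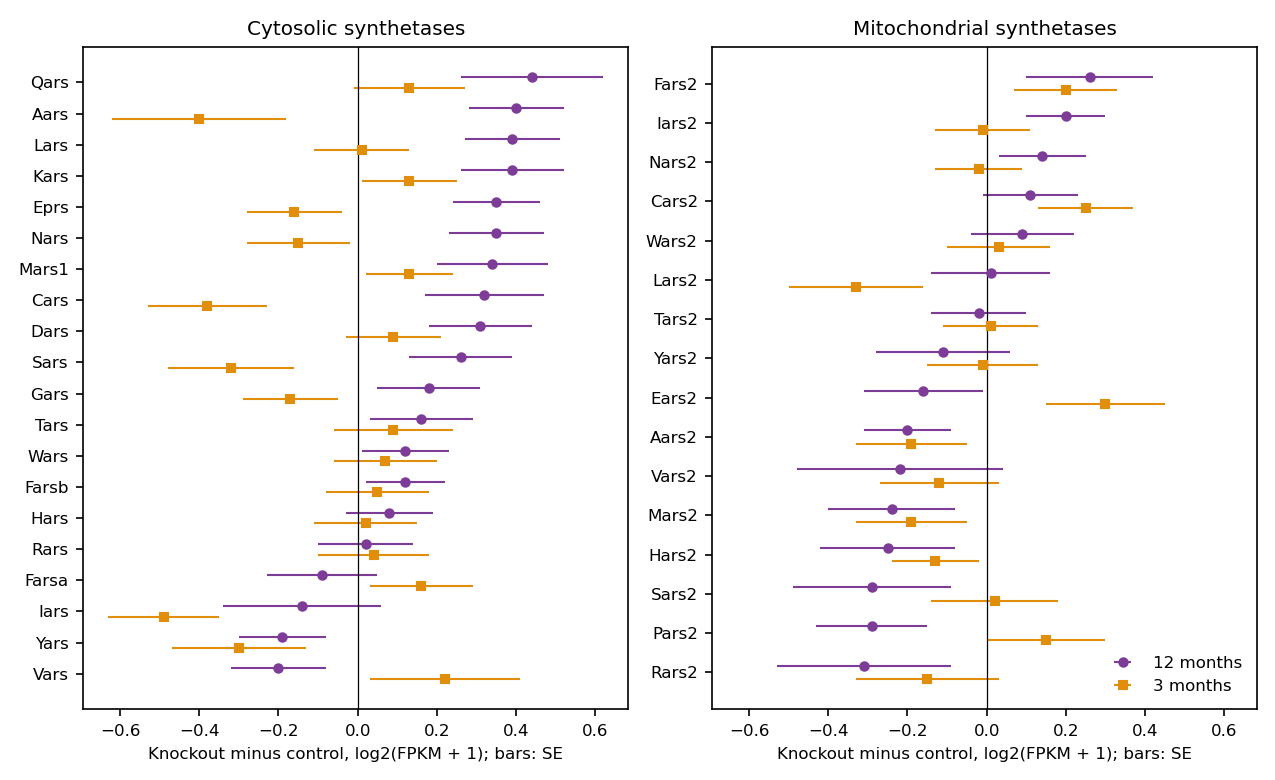
Knockout minus control difference on the log2(FPKM + 1) scale for the 20 cytosolic (left) and 16 mitochondrial (right) synthetases at 12 months (circles) and 3 months (squares), with bars for the limma SE, ordered by the 12-month value. At 12 months 16 of 20 cytosolic genes lie above 0 (8 of 20 in TPM) and 10 of 16 mitochondrial genes below it (16 of 16 in TPM), and none of these differences was called. Of all genes tested in TPM, 2444 of 13203 lie above 0.

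Groups that did not overlap were frequent at 12 months in every kind of gene, at 50.3% of all genes tested, of which 27.3% higher and 23% lower in knockout hearts. Among cytosolic members 15 of 20 lay wholly above the controls in FPKM, 2 lay below (Vars, the valyl enzyme, and Yars, the tyrosyl enzyme) and 3 overlapped (Farsa, Iars and Rars), whereas in TPM 5 lay above and 10 below. Of mitochondrial members 3 lay above, 3 below and 10 overlapped in FPKM, and 0 lay above and 14 below in TPM. All genes turned likewise, with 1030 of 13203 wholly above and 7643 wholly below in TPM. The remaining cytosolic genes wholly above in FPKM were Cars, Dars, Farsb, Gars, Hars, Mars1, Qars, Sars, Tars and Wars beside the 5 already named, with differences from 0.08 for Hars, the histidyl enzyme, to 0.44. Vars had -0.20 ± 0.12 and Yars -0.19 ± 0.11 (limma adjusted p = 0.519 and 0.526). Gars, which serves both compartments, had 0.18 ± 0.13 beside the 0.39 of Kars, the other gene of this kind.

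Among mitochondrial enzymes at 12 months, the 4 of lowest p pointed both ways. Pars2, the prolyl enzyme, was at 2.83 and 2.62 FPKM in knockout hearts against 3.81 and 3.30 FPKM in controls (-0.29 ± 0.14, limma adjusted p = 0.449). Aars2, the alanyl enzyme, was at 7.83 and 7.33 FPKM in knockout hearts against 8.82 and 8.81 FPKM in controls (-0.20 ± 0.11, limma adjusted p = 0.495). Both lay wholly below the controls. Iars2 was at 30.5 and 30.7 FPKM in knockout hearts against 26.5 and 26.6 FPKM in controls (0.20 ± 0.10, limma adjusted p = 0.469), and -0.11 in TPM. Fars2, the phenylalanyl enzyme, was at 23.9 and 30.4 FPKM in knockout hearts against 22.8 and 21.8 FPKM in controls (0.26 ± 0.16, limma adjusted p = 0.514), and -0.05 in TPM. Fars2 had the highest mitochondrial difference and Rars2, the arginyl enzyme, the lowest at -0.31 ± 0.22, with 17.6 and 26.1 FPKM in knockout hearts against 27.9 and 25.9 FPKM in controls.

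**Figure D2:**
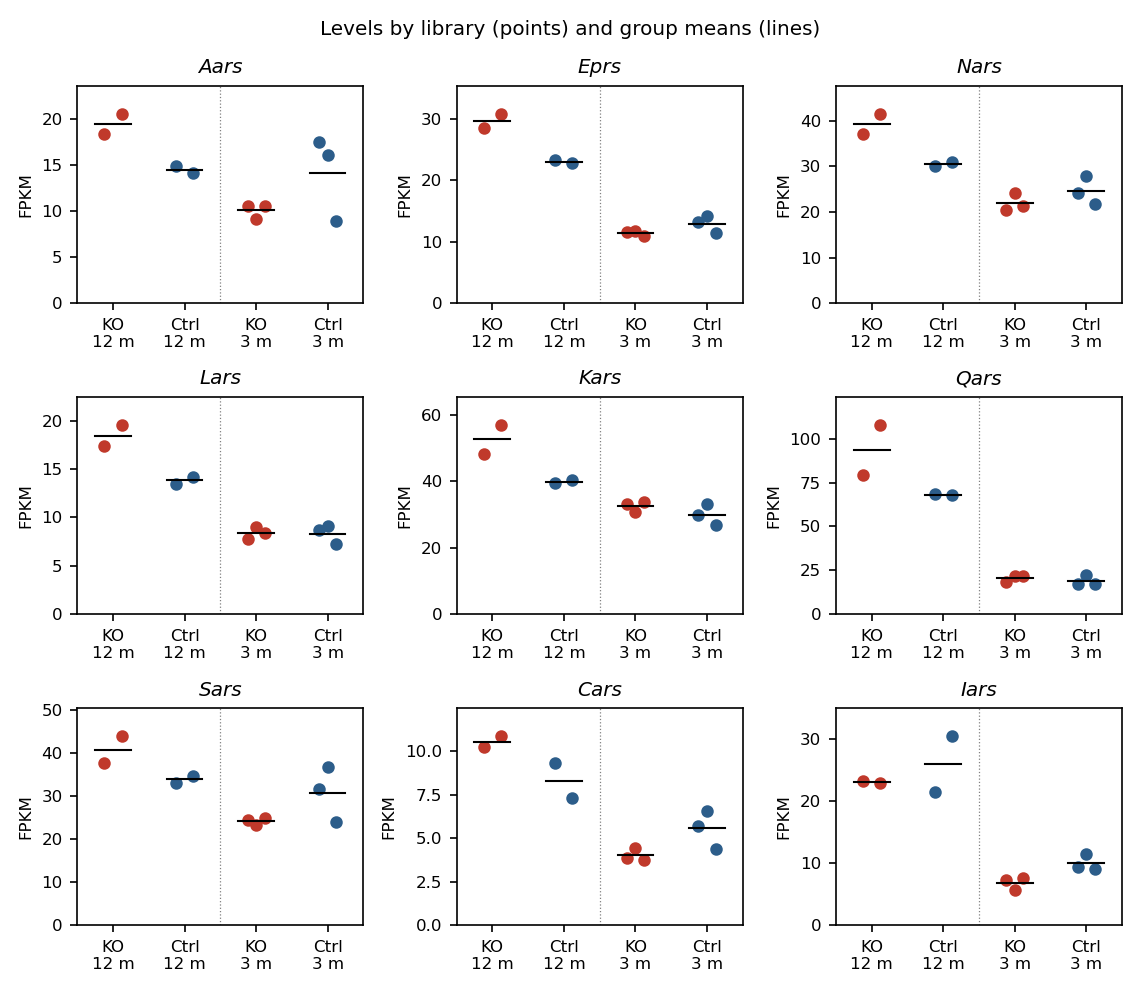
FPKM of 9 cytosolic synthetases in each library (points) with group means (lines), knockout left of control at 12 months and at 3 months; the ages come from separate tables. At 12 months the knockout points of Aars, Eprs, Nars, Lars, Kars, Qars, Sars and Cars lie above the controls, and at 3 months the groups overlap for all but Iars (5.66 to 7.58 FPKM in knockout, 9.08 to 11.5 FPKM in control hearts).

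The second 12-month knockout library carried more of the cytosolic difference than the first. It held the higher value of the knockout pair for 14 of 20 cytosolic genes, beside 48.6% of all genes. Without the first knockout library limma called 12 members, of which 10 cytosolic genes and Fars2 were higher and Sars2, the mitochondrial seryl enzyme, was lower. The same fit called 33.4% of all genes, with 18.6% higher, and its spread came from the controls alone, so that the lone knockout sample was assumed to vary like them. Adjusted p-values of named members at 12 months ran from 0.0154 in that fit to 1.0 over all alternatives. Without the second knockout library the cytosolic median was 0.14, against 0.32 without the first. The knockout pair differed from each other with a robust SD of 0.416 over genes on the log2 scale, and the control pair with 0.113. Both pairs come from a table named as leaving out outliers, which may have narrowed these spreads.

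At 3 months the medians of both compartments lay within 0.1 of that of all genes on the log2 scale, and again no member passed the test. The median difference was 0.03 over cytosolic genes, with 12 above 0 and 8 below (5 and 15 with median-of-ratios or TPM rescaling), and -0.01 over mitochondrial genes, with 7 above and 9 below (4 and 12 after either rescaling). All 12200 genes tested had a median of 0.09, with 65% above 0, and both rescalings brought that median to 0. Relative to all genes the cytosolic median was 0.06 lower and the mitochondrial median 0.1 lower. Limma called 0 of 36 members, beside 0.746% of all genes, and limma without a trend also 0. At an unadjusted p under 0.05 both gave 2 members, Iars and Cars, each lower in knockout hearts, where 18.2% of all genes reached that level and 2.3% were lower. With median-of-ratios rescaling that level was reached by 9 members, all lower (7 cytosolic, each of them ATF4-listed as defined below, and 2 mitochondrial), beside 858 lower and 1191 higher of 12189 genes. In TPM 1 member reached it, which was lower, beside 259 genes lower and 803 higher of 13275. In FPKM, Iars lay wholly below the controls and Cars2 wholly above, and the other 34 members overlapped, beside 4.6% of all genes wholly below and 20.1% wholly above (24.7% in all). After median-of-ratios rescaling 10 members lay wholly below (6 cytosolic, 4 mitochondrial) and 2 wholly above, beside 1552 and 1522 of all genes. In TPM 2 members lay wholly below and 0 wholly above, beside 429 and 1169 of all genes.

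Iars and Cars had the lowest p of the family at 3 months. Iars was at 7.34, 5.66 and 7.58 FPKM in knockout hearts against 9.41, 11.5 and 9.08 FPKM in controls, a log2 difference of -0.49 ± 0.14 (limma adjusted p = 0.164). The exact permutation test of its 3 knockout against 3 control libraries gave p = 0.1, two-sided, the smallest that this design allows. Cars was at 3.88, 4.43 and 3.74 FPKM in knockout hearts against 5.72, 6.59 and 4.38 FPKM in controls (-0.38 ± 0.15, limma adjusted p = 0.231), with 1 knockout library above the lowest control. Aars was at 10.6, 9.14 and 10.5 FPKM in knockout hearts against 17.5, 16.1 and 8.86 FPKM in controls (-0.40 ± 0.22, limma adjusted p = 0.368). Sars was at 24.6, 23.3 and 24.8 FPKM in knockout hearts against 31.6, 36.8 and 24.1 FPKM in controls (-0.32 ± 0.16, limma adjusted p = 0.325). In Aars and Sars the knockout libraries stood close together, while control library 3 lay under the other controls, below the knockout range for Aars and within it for Sars.

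Control library 3 was the lowest of the 3 controls for 20 of 20 cytosolic genes and 10 of 16 mitochondrial genes, beside 48.9% of all genes tested. Control library 2 was the highest of the 3 for 15 of 20 cytosolic and 12 of 16 mitochondrial genes, beside 55.1% of all genes. Without control library 3 the cytosolic median was -0.07 with 14 of 20 genes below 0, and without library 2 it was 0.09 with 8 of 20 below 0. Limma called 0 members in either case. Without library 3 it called 22 genes higher and 7 lower of 12227, and without library 2 it called 15 higher and 7 lower of 12185.

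The 12 cytosolic genes commonly listed as ATF4 targets (Aars, Cars, Eprs, Gars, Iars, Lars, Mars1, Nars, Sars, Tars, Wars and Yars) had a median of 0.29 at 12 months, with 10 of 12 above 0 (a median of -0.02 with 6 of 12 in TPM), and the other 8 cytosolic genes a median of 0.10, with 6 of 8 above 0 (2 of 8 in TPM). At 3 months the listed genes had a median of -0.17, with 8 of 12 below 0, and of -0.27 with 11 of 12 below 0 after median-of-ratios or TPM rescaling. The other 8 had a median of 0.11 at 3 months, with 8 of 8 above 0, and 4 of 8 after either rescaling. Relative to all genes the listed set was 0.28 higher at 12 months and 0.26 lower at 3 months. In TPM it was 0.25 higher and 0.27 lower, where 2444 of all 13203 genes lay above 0 at 12 months and 6654 of 13275 at 3 months. Without the second 12-month knockout library the listed median at 12 months was 0.18, and at 3 months it ran from -0.25 without control library 3 to -0.10 without control library 2. No member of either set was called at either age.

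Mitochondrial enzymes at 3 months showed their lowest p for genes of opposite sign. Cars2, the cysteinyl enzyme, was at 16.8, 17.8 and 16.5 FPKM in knockout hearts against 14.7, 15.5 and 12.3 FPKM in controls (0.25 ± 0.12, limma adjusted p = 0.313). Ears2, the glutamyl enzyme, was at 5.28, 5.99 and 5.83 FPKM in knockout hearts against 4.74, 5.33 and 3.45 FPKM in controls (0.30 ± 0.15, limma adjusted p = 0.327). Cars2 did not overlap between groups, whereas the lowest knockout value of Ears2 lay just under the highest control. Fars2 was at 34.1, 35.4 and 31.1 FPKM in knockout hearts against 31.1, 31.3 and 25.1 FPKM in controls (0.20 ± 0.13, limma adjusted p = 0.441). The fourth was Lars2, given above. The other 12 mitochondrial genes ran from -0.19 for Aars2 and Mars2 to 0.15 for Pars2.

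**Figure D3:**
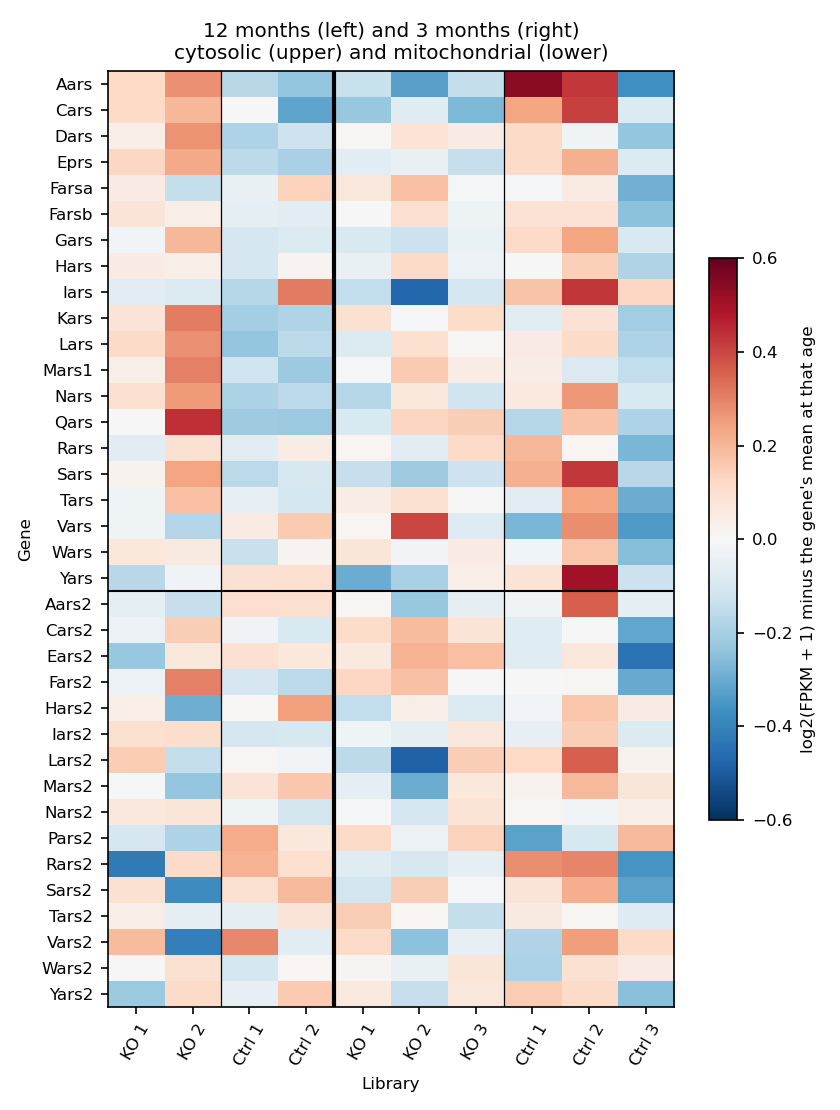
Level of each synthetase in each library as log2(FPKM + 1) minus the gene's mean over the libraries of that age, cytosolic genes above the line and mitochondrial genes below it, knockout (KO) left of control (Ctrl) within 12 months (left) and 3 months (right). The second knockout library at 12 months is the higher of its pair for 14 of 20 cytosolic genes, and the third control at 3 months is the lowest control for 20 of 20.

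Between ages, the knockout difference of most cytosolic synthetases was larger at 12 than at 3 months, but the change passed the test for none. The difference at 12 months minus that at 3 months had a median of 0.24 over cytosolic genes, with 17 of 20 above 0 (11 of 20 in TPM), and of -0.07 over mitochondrial genes, with 5 of 16 above 0 (1 of 16 in TPM), beside -0.08 and 40.8% above 0 for the 11580 genes tested at both ages. Of all genes tested in TPM, 2641 of 12288 lay above 0. Without the second 12-month knockout library the cytosolic median was 0.10. For the ATF4-listed genes the full fit gave 0.37 with 12 of 12 above 0 (8 of 12 in TPM), and for the other 8 cytosolic genes 0.06 with 5 of 8. Limma called 0 of 36 members, beside 1.38% of genes, and limma without a trend also 0. At an unadjusted p under 0.05 both gave 5 members, Cars, Eprs, Nars, Sars and Aars, all larger at 12 months, beside 15.3% of genes at that level and 5.65% that were larger. The 5 all belong to the ATF4-listed set, which holds 12 of the 20 cytosolic genes and was chosen with earlier results of these data known. In TPM 0 members reached that level, beside 232 genes larger and 1561 smaller of 12288. With median-of-ratios rescaling 8 members did, all larger at 12 months, beside 1098 genes larger and 837 smaller of 11570. Age is confounded here with the table, the library preparation and the sex difference of the 12-month groups, which cannot be told apart from it.

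Aars had the widest shift, 0.80 ± 0.32 (limma adjusted p = 0.274), and without 3-month control library 3 it reached 1.08 (limma adjusted p = 0.0297), the only alternative in which a member was called for this contrast. That fit called 1.02% of genes, with 0.527% larger at 12 months. Over the other alternatives its adjusted p ran from 0.187 in median-of-ratios rescaling to 0.585 without 12-month control library 2. Cars had 0.70 ± 0.23 (limma adjusted p = 0.174) and Eprs 0.51 ± 0.17 (limma adjusted p = 0.174). Sars had 0.57 ± 0.23 and Nars 0.50 ± 0.19 (limma adjusted p = 0.269 and 0.245). On the FPKM scale, higher values at 12 months together with lower values at 3 months occurred in 9 of 36 members, 6 of them cytosolic (Aars, Cars, Eprs, Gars, Nars and Sars) and 3 mitochondrial (Iars2, Lars2 and Nars2), beside 16.5% of all genes. All 6 cytosolic ones are ATF4-listed, and the 5 members of lowest p between ages are among them.

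The ratio of the cytosolic to the mitochondrial enzyme of the same amino acid within a library does not depend on scaling between libraries. It was formed for 17 pairs, of which Eprs and Fars2 each enter more than 1. At 12 months the ratio was higher in every knockout library than in every control for 10 pairs, lower for 1 (Iars/Iars2) and overlapping for 6. At 3 months it was higher for 1 pair (Hars/Hars2), lower for 5 (Cars/Cars2, Eprs/Ears2, Farsb/Fars2, Iars/Iars2 and Sars/Sars2) and overlapping for 11. Single genes were wholly higher or lower in 50.3% of cases at 12 months and 24.7% at 3 months in FPKM, which does depend on scaling. In TPM 1030 genes lay wholly above and 7643 wholly below at 12 months, of 13203 tested. At 3 months in TPM 1169 lay wholly above and 429 wholly below, of 13275 tested. No share was formed over ratios of other genes, so the counts of pairs have no background of like kind. No test was run on the ratios.

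The Eprs/Ears2 ratio, of the enzymes that charge glutamate, stood on opposite sides of the controls at the 2 ages. On the log2 scale it was 2.5 and 2.26 in 12-month knockout hearts against 1.83 and 1.83 in controls, and 1.13, 0.97 and 0.91 in 3-month knockout hearts against 1.48, 1.42 and 1.73 in controls. For serine, Sars/Sars2 was 2.51 and 3.29 in 12-month knockout hearts against 2.32 and 2.27 in controls, and 2.71, 2.32 and 2.61 in 3-month knockout hearts against 2.85, 2.89 and 2.96 in controls. Both ratios were thus wholly above the controls at 12 months and wholly below them at 3 months, as was Cars/Cars2. Cars/Cars2 was -0.79 and -0.90 in 12-month knockout hearts against -0.95 and -1.22 in controls, and -2.11, -2.0 and -2.14 in 3-month knockout hearts against -1.36, -1.23 and -1.49 in controls, the widest gap of the 17 pairs at that age. Aars/Aars2 was 1.22 and 1.48 in 12-month knockout hearts against 0.75 and 0.68 in controls, and overlapped at 3 months. Iars/Iars2 was the exception that lay below the controls at both ages, at -0.39 and -0.42 in 12-month knockout against -0.30 and 0.20 in control hearts, and at -1.0, -1.34 and -1.06 in 3-month knockout against -0.62, -0.54 and -0.63 in control hearts.

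The extremes of the ratio were set by genes of very unequal level. Over all 12-month libraries the highest mean ratio was that of Mars1 to Mars2, at 3.5 and 4.13 in knockout against 3.21 and 2.99 in control hearts. Over all 3-month libraries together it was that of Wars, the cytosolic tryptophanyl enzyme, to Wars2, where the groups overlapped at 3.69 to 3.84 in knockout and 3.41 to 4.15 in control hearts. Lars/Lars2 had the lowest mean at 12 months, at -4.18 and -3.72 in knockout against -4.41 and -4.30 in control hearts. Farsa/Fars2 had the lowest mean over all 3-month libraries together, at -1.87 to -1.80 in knockout against -1.83 to -1.77 in control hearts. Within the 3-month knockout hearts alone Mars1/Mars2 was the highest, at a mean of 3.91, and Cars/Cars2 the lowest, at -2.08. Wars was at 21.1 and 20.9 FPKM in 12-month knockout against 18.3 and 20.4 FPKM in control hearts, and Farsa, the catalytic subunit of the phenylalanyl enzyme, at 11.6 and 9.98 FPKM in knockout against 10.8 and 12.3 FPKM in control hearts.

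**Figure D4:**
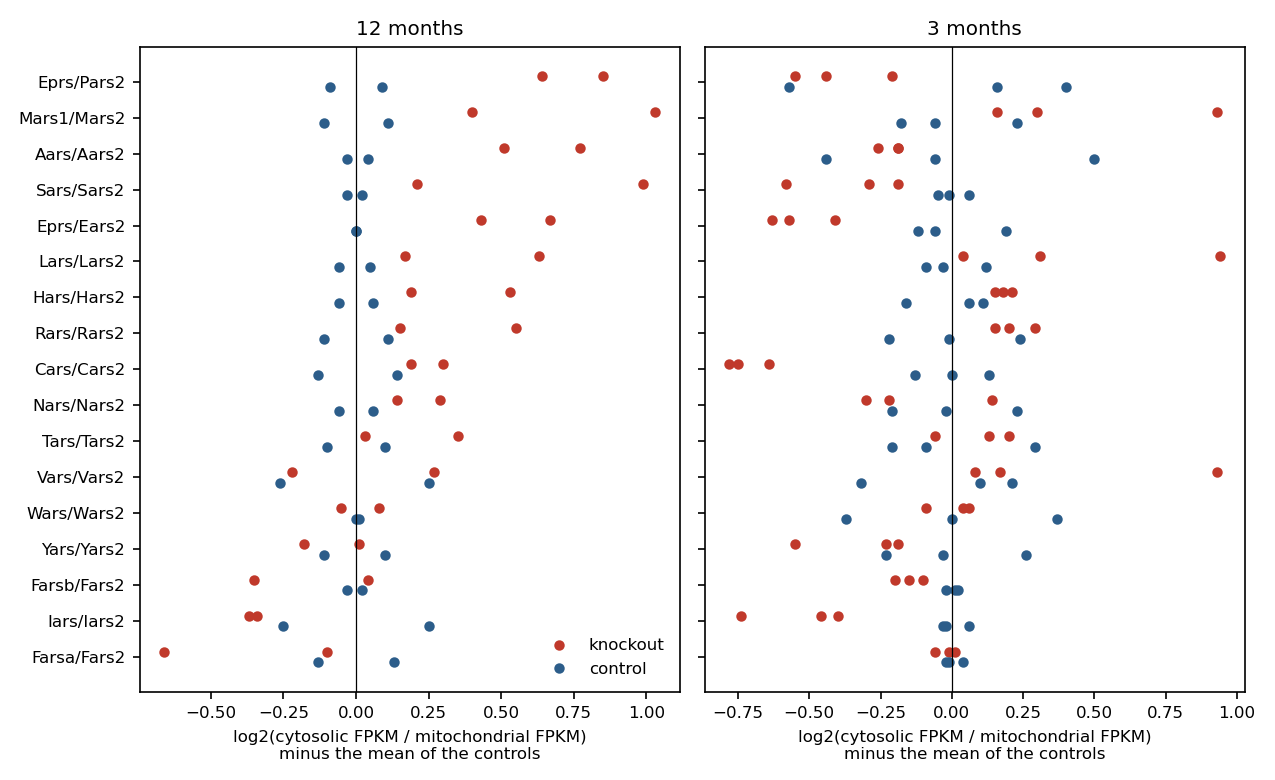
Log2 ratio of cytosolic to mitochondrial FPKM for 17 pairs of enzymes, per library and relative to the mean of the controls of that age, at 12 months (left) and 3 months (right). At 12 months the knockout points lie wholly above the controls for 10 pairs and wholly below for 1, and at 3 months wholly above for 1 and wholly below for 5.

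Other genes that handle charged tRNA did not pass the test at either age. Of 18 such genes 0 were called, beside 0.395% of all genes at 12 months and 0.746% at 3 months. At each age 11 lay above 0 and 7 below, beside 51.5% of all genes above 0 at 12 months and 65% at 3 months. The medians of the 18 were 0.04 at 12 months and 0.06 at 3 months, beside 0.01 and 0.09 over all genes tested. The lowest p at 12 months belonged to Qrsl1, a subunit of the mitochondrial amidotransferase that makes glutaminyl-tRNA, and to Eef1a2, the muscle form of the factor that carries charged tRNA to the ribosome. Qrsl1 was at 13.7 and 10.7 FPKM in knockout hearts against 18.7 and 19.6 FPKM in controls (-0.62 ± 0.16, limma adjusted p = 0.259). Eef1a2 was at 665 and 726 FPKM in knockout hearts against 507 and 510.0 FPKM in controls (0.45 ± 0.12, limma adjusted p = 0.267). At 3 months the lowest p belonged to Eef1a1, the widely expressed form, and to Aimp1, a scaffold of the multi-synthetase complex. Eef1a1 was at 651, 904 and 741 FPKM in knockout hearts against 526, 439 and 582 FPKM in controls (0.56 ± 0.17, limma adjusted p = 0.172). Aimp1 was at 41.8, 50.6 and 45.5 FPKM in knockout hearts against 37.5, 33.7 and 32.7 FPKM in controls (0.40 ± 0.12, limma adjusted p = 0.176). All 4 had groups that did not overlap at the age named, as had 50.3% of all genes at 12 months and 24.7% at 3 months.

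Of the amino acid response genes 2 fell at 3 months and 0 were called at 12 months. Among the 13 tested at 3 months, where 0.123% of all genes were called lower, Mthfd2, a mitochondrial folate enzyme, fell by 2.65 ± 0.20 on the log2 scale (limma adjusted p = 0.000982), and Atf5, a relative of ATF4, fell by 1.22 ± 0.14 (limma adjusted p = 0.00892). Of these 13, 4 lay above 0 and 9 below, with a median of -0.26, beside 65% above 0 and a median of 0.09 over all genes. At 12 months 0 of 14 were called, beside 0.395% of all genes. There 10 lay above 0 and 4 below, with a median of 0.26, beside 51.5% above 0 and a median of 0.01 over all genes. This list was not rescaled to TPM, which moved the 12-month median of all genes to -0.27. Atf4 itself was at 61.2 and 74.6 FPKM in 12-month knockout hearts against 44.4 and 44.9 FPKM in controls (0.59 ± 0.14, limma adjusted p = 0.254), and at 36.8, 39.6 and 36.1 FPKM in 3-month knockout hearts against 40.6, 42.0 and 34.8 FPKM in controls (-0.06 ± 0.12, limma adjusted p = 0.841). The difference between ages was called for 3 of 12 tested, beside 1.38% of all genes, namely Mthfd2 (2.90), Chac1, a glutathione-degrading enzyme (1.59), and Atf5 (1.5), at limma adjusted p of 0.00188, 0.0124 and 0.0128. In FPKM with all libraries no synthetase had a difference outside -0.49 to 0.44 at either age. In TPM the synthetases ran from -0.62 to 0.12 at 12 months and from -0.6 to 0.22 at 3 months.

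Several members share genomic ground with a neighbour, which bears on values where reads are not assigned by strand. Hars and Hars2 overlap head to head on chromosome 18, Mars1 overlaps Ddit3, and Cars2, Ears2, Fars2, Iars2, Farsb, Wars and Yars each overlap a gene of the opposite strand, while Aars overlaps Exosc6 on its own strand. The 3-month libraries were strand-specific per the labels, and the strand setting of the 12-month libraries and of the counting was not given in the sources used.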

How the data were processed

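Hearts were dissected and total RNA sequenced, per the labels' protocols: libraries made at the Genome Institute of Singapore at 12 months, and directional poly(A) libraries at 3 months. The authors deposited FPKM per gene, 1 table per age. By name, the 12-month table leaves out outliers, while the 3-month table holds all samples. Which 12-month libraries were dropped, if any, and by what rule is unknown. The spread, p-values and counts of groups apart at 12 months may therefore describe a selected set of libraries, and the effect of this was not tested. Per the submitters' processing notes, the tools were Cufflinks 2.1.1, STAR 2.5.1b, TopHat2 2.1.0 and FastQC, with builds GRCm38 and mm10, in an order not given in the sources used here. At 3 months, 69 repeated identifiers were summed. Symbols and coordinates came from GENCODE M21 (GRCm38) by Ensembl identifier.

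Genes averaging at least 1 FPKM at an age were tested on log2(FPKM + 1) with limma 3.58.1 (R 4.3.3), knockout minus control, empirical Bayes with trend, Benjamini-Hochberg adjustment over all genes tested, called under 0.05; the ages were compared by an interaction contrast over all 10 libraries. Residual degrees of freedom were 2 at 12 months and 4 at 3 months. Tested on simulated data, genes changed 1.5-fold, 2-fold and 4-fold were called in 6%, 47.8% and 93.9% of cases at 12 months (13179 genes) and in 59.7%, 95.5% and 100% at 3 months (12200 genes), for genes above about 5 FPKM. Unchanged genes gave 3 false calls at 12 months and 10 at 3 months. The simulated noise was independent between genes, with each gene's spread pulled toward the median, and held no shift shared by a whole library. These shares may therefore not hold for the real libraries. Depth was sought in low values, of which 85.5% to 88.8% per library fell within 0.05 of a whole read at 12 months and 18.0% to 35.2% at 3 months.

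Members and lists were chosen with earlier results of these data known, so lists are described without a test. Values in every library are given for members called, for the 4 of lowest p per compartment and age, for the highest and lowest by mean level or by ratio and, of the other charging genes, for those called and the 2 of lowest p per age. Dars, Gars, Hars, Rars, Rars2, Vars, Yars and Atf4 were named after their values were seen. Alternatives were a pseudocount of 0.1, no filter, a filter at 5 FPKM, median-of-ratios and TPM rescaling, limma without a trend, a replicate block and leaving out each library. Slc7a5 was not analysed here, and 1 promoter window is not reported here.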

Additional observations from a re-analysis of the deposited data

How the results depend on the processing

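The number of members called stayed at 0 at 12 months, at 3 months and for the difference between ages under another pseudocount, either filter, both rescalings, limma without a trend and the replicate block. Leaving out 1 library gave 0 members called at 3 months and 0 to 1 for the difference between ages. The 1 was Aars without the third 3-month control, where 1.02% of genes were called. At 12 months such a fit takes its spread from 1 group alone, so its count of members called is not compared with the others. Calls at 12 months arose only without the first knockout library, as given above. Leaving out 1 library gave cytosolic medians of 0.14 to 0.32 at 12 months and -0.07 to 0.09 at 3 months, and mitochondrial medians of -0.11 to -0.02 at 12 months and -0.08 to 0.03 at 3 months. TPM rescaling gave a cytosolic median of -0.09 and a mitochondrial median of -0.43 at 12 months, and both rescalings a mitochondrial median of -0.11 at 3 months. In TPM 8 cytosolic and 0 mitochondrial members lay above 0 at 12 months (16 and 6 in FPKM), beside 2444 of all 13203 genes. Under both rescalings 5 and 4 members lay above 0 at 3 months (12 and 7 in FPKM). Without 3-month control library 3, 6 of 20 cytosolic members lay above 0 at that age. Among the members with values given in every library, signs turned in TPM at 12 months for Sars (-0.06), Cars2 (-0.20), Lars2 (-0.31), Fars2 (-0.05), Wars2 (-0.16), Iars2 (-0.11) and Wars (-0.19). Among the same members at 3 months they turned with median-of-ratios and TPM rescaling for Lars (-0.08 and -0.08), Wars2 (-0.02 and -0.03) and Wars (-0.03 and -0.03). Leaving out 1 library moved the differences across 0, among the same members, for Lars (-0.08 to 0.07), Wars2 (-0.06 to 0.09), Wars (-0.04 to 0.17) and Iars2 (-0.06 to 0.06) at 3 months, and for Iars (-0.38 to 0.10) and Lars2 (-0.14 to 0.15) at 12 months. The cause was not tested, beyond the smaller spread of the control pair named in the report. Over the alternatives run for named genes, 548 values kept sign and side of the threshold, 22 changed sign and 10 passed the threshold. Same-numbered samples did not pair (correlations of -0.006 and -0.006 at 12 months and -0.121, -0.458 and -0.143 at 3 months), and the replicate block called 0 members in each comparison, with lowest adjusted p of 0.497 at 12 months, 0.300 at 3 months and 0.252 between ages. The 2 libraries per group at 12 months limit what can be called.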
